A study of Mus musculus with 10 samples.

Results

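Alveolar type 1 (AT1) cell genes were followed in lung tumors that arose with or without intact Slc2a1, which encodes the glucose transporter Glut1. Ager, Hopx, Pdpn, Aqp5, Rtkn2, Cav1, Clic5, Akap5 and Emp2 were chosen by symbol because they mark AT1 cells, and each of the 9 symbols matched 1 of the 39017 genes in the deposited count table. RNA sequencing of polyadenylated RNA gave 10 libraries, 5 labelled Control and 5 labelled Glut1-KO, with totals of 35.3 to 49.8 M counts (M, mega). All mice were of the C57BL/6 strain. Control libraries came from KP mice, which carry floxed Trp53 (p53Fl/Fl) among other alleles, with the label heterozygous fl/wt for Glut1, while the methods of the study speak of wild-type or heterozygous controls. Glut1-KO libraries came from KPG1 mice, which carry the KP alleles together with Glut1Fl/Fl. In both groups Cre was carried into the airways by the adenovirus Ad5CC10-Cre, so that recombination started in cells with activity of the CC10 promoter, a promoter of bronchiolar club cells. Tumors were dissected 20 weeks and 1 day later, dissociated, and depleted of CD45-positive cells with magnetic beads, so that tumor cells, endothelium and stroma remained together in the material sequenced.

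AT1 cells are the thin, spread-out epithelial cells that cover most of the alveolar surface and across which gas exchange takes place. They share a basement membrane with capillary endothelium, and they can arise from alveolar type 2 (AT2) cells, the producers of surfactant, through a transitional state rich in keratin 8. Several of the genes used to mark AT1 cells are not private to them, since Cav1 is abundant in endothelium and Pdpn in lymphatic endothelium and some stromal cells. In bulk RNA from a tumor fraction, fewer cells of a type and less RNA per cell cannot be told apart.

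The libraries differed in ways that bear on every comparison. All 5 controls were male, whereas replicates 1, 2 and 3 labelled Glut1-KO were female and replicates 4 and 5 male. A further number in the deposited names could mark the animal, which the labels leave unsaid. Control replicates 1, 2 and 5 shared 1 such number, control replicates 3 and 4 another, and Glut1-KO replicates 4 and 5 a further one. Should these numbers stand for mice, p-values that treat libraries as independent would be too small. Slc2a1 itself was read first. It measured between 73.2 and 118 CPM (counts per M after TMM scaling, a scaling that evens out library composition) in controls. In the female libraries labelled Glut1-KO it measured 60.3, 42.5 and 34.6 CPM, below every control, but in the male ones 92.4 and 103 CPM, inside the control range. At a log2 fold change of -0.62 (SE 0.29) it missed the threshold of 0.05 (limma, Benjamini-Hochberg adjusted p 0.658, exact permutation p 0.0952). Directions below therefore rest on the labels, and the group is called the libraries labelled Glut1-KO. Whether a transcript lacks the deleted exons cannot be read from counts per gene.

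The genes lie on 8 different chromosomes. On GRCm38, the assembly that mm10 names, Ager (ENSMUSG00000015452) spans chr17:34597862-34600936 and Clic5 (ENSMUSG00000023959) chr17:44188584-44280172, both on the plus strand. Hopx (ENSMUSG00000059325) spans chr5:77086988-77115121, Pdpn (ENSMUSG00000028583) chr4:143267431-143299564 and Emp2 (ENSMUSG00000022505) chr16:10281749-10313968, all on the minus strand. Aqp5 (ENSMUSG00000044217) lies at chr15:99590782-99594829, Rtkn2 (ENSMUSG00000037846) at chr10:67979570-68059740, Cav1 (ENSMUSG00000007655) at chr6:17306335-17341452 and Akap5 (ENSMUSG00000021057) at chr12:76324891-76334153, all on the plus strand. All 9 are annotated as protein-coding in GENCODE M21. Exons of Hopx overlap the antisense gene Hopxos over 412 bases and exons of Rtkn2 the antisense gene Gm16212 over 216 bases. Since the strand setting of the counting was not given in the sources used here, reads there cannot be assigned to 1 strand. Hopxos held 62 counts and Gm16212 held 0 counts over all libraries. These counts do not show how reads over the shared bases were counted for Hopx and Rtkn2.

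RefSeq promoter windows (GRCm38.p6, 250 bases before to 50 bases after a start) were at hand for 8 of the 9 genes, Rtkn2 being the exception, in 10 windows. They were searched on both strands for letters bound by factors with known roles in alveolar cells, namely CTCAAG for NKX2-1, the lung lineage factor, GGAATG for TEAD factors, the partners of YAP and TAZ, and TGANTCA for AP-1. The NKX2-1 letters were found in Hopx alone, and in both of its windows, while 15.9% of all 32851 promoter windows hold them. The TEAD letters were in 0 of the 8 genes (14.7% of all windows) and the AP-1 letters in 0 (7.81% of all windows). The bases before the upstream Hopx start, chr5:77115124-77115373 on the minus strand, and a short site after the downstream start, chr5:77095218-77095243 on the minus strand, are shown because they hold the only matches. Capitals mark CTTGAG, the reverse complement of the letters searched, which begins 112 bases before the first start and 36 bases after the other.
Hopx, upstream start: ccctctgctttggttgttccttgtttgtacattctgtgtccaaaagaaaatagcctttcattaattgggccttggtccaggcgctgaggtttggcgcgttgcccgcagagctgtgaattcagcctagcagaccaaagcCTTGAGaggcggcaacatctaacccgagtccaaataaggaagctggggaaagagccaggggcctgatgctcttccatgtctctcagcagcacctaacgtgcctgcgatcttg
Hopx, downstream start: ccggaggcagcaCTTGAGgcgcttcc
A match is a description of the sequence and was not tied to binding or to the levels below.

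Levels were first compared between the genes in TPM (counts per exon length, scaled to an equal total in each library) over the 10 libraries. Ager, which encodes the receptor RAGE of the AT1 cell membrane, was the most abundant on average, at 1511 ± 708 TPM (SD, n = 10), rank 49 of 15922 genes tested. Aqp5, a water channel of the apical membrane, followed at 576 ± 203 TPM (rank 190) and Emp2, a tetraspan membrane protein, at 226 ± 48.4 TPM (rank 634). Hopx, a homeodomain protein that does not itself bind DNA, stood at 112 ± 41.2 TPM and Pdpn, the mucin-type glycoprotein podoplanin, at 101 ± 49.1 TPM. Clic5, a chloride intracellular channel protein linked to the actin cortex, reached 83.7 ± 22.7 TPM. Cav1, the main protein of caveolae, reached 41.7 ± 18.8 TPM and Akap5, an anchor of protein kinase A, 39.1 ± 20.1 TPM. Rtkn2 was lowest at 7.12 ± 3.76 TPM, rank 10631.

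Not all neighbours in this order were separated by the spread over libraries. In all 10 libraries Aqp5 was above Emp2, Emp2 above Hopx, Clic5 above Cav1 and Akap5 above Rtkn2, yet the ranges over libraries stood apart only for Aqp5 and Emp2 and for Akap5 and Rtkn2. Ager was above Aqp5 in 9 of 10 libraries. Hopx was above Pdpn in 5 of 10, Pdpn above Clic5 in 7 of 10 and Cav1 above Akap5 in 4 of 10, so these pairs had no fixed order.

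**Figure D1:**
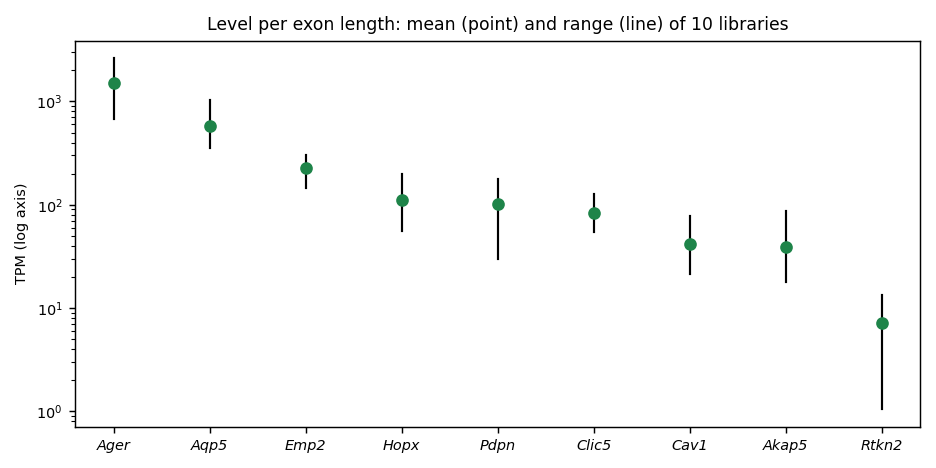
TPM (vertical log axis) of the 9 AT1 cell genes, with a point for the mean and a line from the lowest to the highest of 10 libraries. The lines of Aqp5 and Emp2 do not touch, nor do those of Akap5 and Rtkn2, whereas those of Hopx, Pdpn and Clic5 overlap widely around means of 112, 101 and 83.7 TPM.

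The effect of genotype was then read gene by gene, beginning with the surface proteins. Ager measured 599, 767, 1223, 470.2 and 1053 CPM in control replicates 1 to 5. In the libraries labelled Glut1-KO it measured 1593, 1353 and 1710 CPM (the female replicates 1 to 3) and then 679 and 564 CPM (the male replicates 4 and 5). All 3 female libraries were thus above every control, while both male libraries lay among the controls. The means were 822 ± 313 and 1180 ± 527 CPM (SD, n = 5 each), and the log2 fold change of 0.46 (SE 0.37, 95% interval -0.34 to 1.27) did not pass the test (limma, adjusted p 0.784). It was 0.28 without control replicate 4, 0.30 without Glut1-KO replicate 3 and 0.70 without Glut1-KO replicate 5. Pdpn measured 72.4, 14.5, 62.2, 38.4 and 78.6 CPM in controls, beside 94.2, 90.7, 49.4, 30.8 and 41.5 CPM in Glut1-KO replicates 1 to 5. Control replicate 2 was lowest of all, and only Glut1-KO replicates 1 and 2 exceeded the highest control. Its log2 fold change was 0.32 (SE 0.48, 95% interval -0.74 to 1.37, limma, adjusted p 0.894), and it became -0.12 without control replicate 2, 0.13 and 0.14 without Glut1-KO replicates 1 and 2, and at most 0.52 without any other library.

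Channel proteins overlapped between the groups as well. Aqp5 measured 638, 251, 521, 465 and 385 CPM in controls. In the libraries labelled Glut1-KO it measured 520.5, 271, 323, 932 and 487 CPM. The highest value of the 10 belonged to the male replicate 4, which alone exceeded the controls, and the log2 fold change was 0.09 (SE 0.34, 95% interval -0.65 to 0.84, limma, adjusted p 0.963) and -0.17 without that library. Leaving out any other library gave -0.09 (control replicate 2) to 0.29 (Glut1-KO replicate 2). Clic5 measured 255, 224, 228, 213 and 303 CPM in controls, a narrow range. In the libraries labelled Glut1-KO it measured 358, 191, 207, 164 and 154 CPM. Replicate 1 was thus above every control and the other 4 below every control. The log2 fold change was -0.25 (SE 0.21, 95% interval -0.72 to 0.22, limma, adjusted p 0.802), and it was -0.45 without Glut1-KO replicate 1 and -0.14 without Glut1-KO replicate 5. Without Glut1-KO replicate 1 the groups did not overlap, with an exact permutation p of 0.00794, the smallest that 126 assignments can give. Without that library 7.83% of all genes had an exact p under 0.05 and 2.85% had groups that did not overlap. limma still did not call Clic5, and the value was seen before this library was singled out.

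Membrane organizers gave the smallest spread and one of the wider ones. Emp2 measured 793, 469, 646, 595 and 803 CPM in controls. In the libraries labelled Glut1-KO it measured 805, 488, 526, 621 and 398 CPM, which overlapped the controls except at both ends. Its log2 fold change was -0.24 (SE 0.21, 95% interval -0.69 to 0.22, limma, adjusted p 0.805), and it was -0.37 without Glut1-KO replicate 1, -0.16 without control replicate 1 or 5 and -0.11 without Glut1-KO replicate 5. Cav1 measured 56.8, 19.7, 77.2, 34.5 and 33.5 CPM in controls, beside 55.8, 74.3, 34.8, 33.7 and 30.5 CPM under the Glut1-KO label. All 5 of the latter lay inside the control range. The log2 fold change was 0.13 (SE 0.37, 95% interval -0.68 to 0.95, limma, adjusted p 0.949), and it became -0.14 without control replicate 2, -0.06 without Glut1-KO replicate 2 and 0.38 without control replicate 3.

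Signalling adaptors and the nuclear protein completed the set. Akap5 measured 79.5, 58.6, 49.7, 46.6 and 92.7 CPM in controls. In the libraries labelled Glut1-KO it measured 115, 165.5, 85.2, 41.9 and 84.9 CPM, with replicates 1 and 2 above every control and replicate 4 below. Its log2 fold change of 0.51 (SE 0.33, 95% interval -0.22 to 1.24, limma, adjusted p 0.748) was the highest of the 9 over all libraries. It fell to 0.29 without Glut1-KO replicate 2, below the 0.38 of Ager there, and was 0.78 without Glut1-KO replicate 4. Ager also exceeded Akap5 without control replicate 3 (0.63 beside 0.43) and without Glut1-KO replicate 5 (0.70 beside 0.54). Rtkn2 measured 24.9, 11.4, 12.6, 6.36 and 12.2 CPM in controls, beside 19.9, 15.9, 11.4, 1.99 and 6.2 CPM under the Glut1-KO label. Both male libraries labelled Glut1-KO were below every control, and the lowest, 1.99 CPM, rested on 65 counts. Its log2 fold change was -0.46 (SE 0.55, 95% interval -1.67 to 0.75, limma, adjusted p 0.862), and it became -0.01 without Glut1-KO replicate 4, -0.22 without control replicate 1 and -0.76 without Glut1-KO replicate 1. Hopx measured 43.3, 52.6, 57.5, 27.7 and 91.3 CPM in controls, beside 67.3, 57.2, 39.8, 35.4 and 53.6 CPM under the Glut1-KO label. These all lay inside the control range, and the log2 fold change was -0.03 (SE 0.29, 95% interval -0.67 to 0.60, limma, adjusted p 0.986). That value was 0.18 without control replicate 5, and 0.01, 0.05 and 0.08 without control replicate 3 and Glut1-KO replicates 3 and 4.

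**Figure D2:**
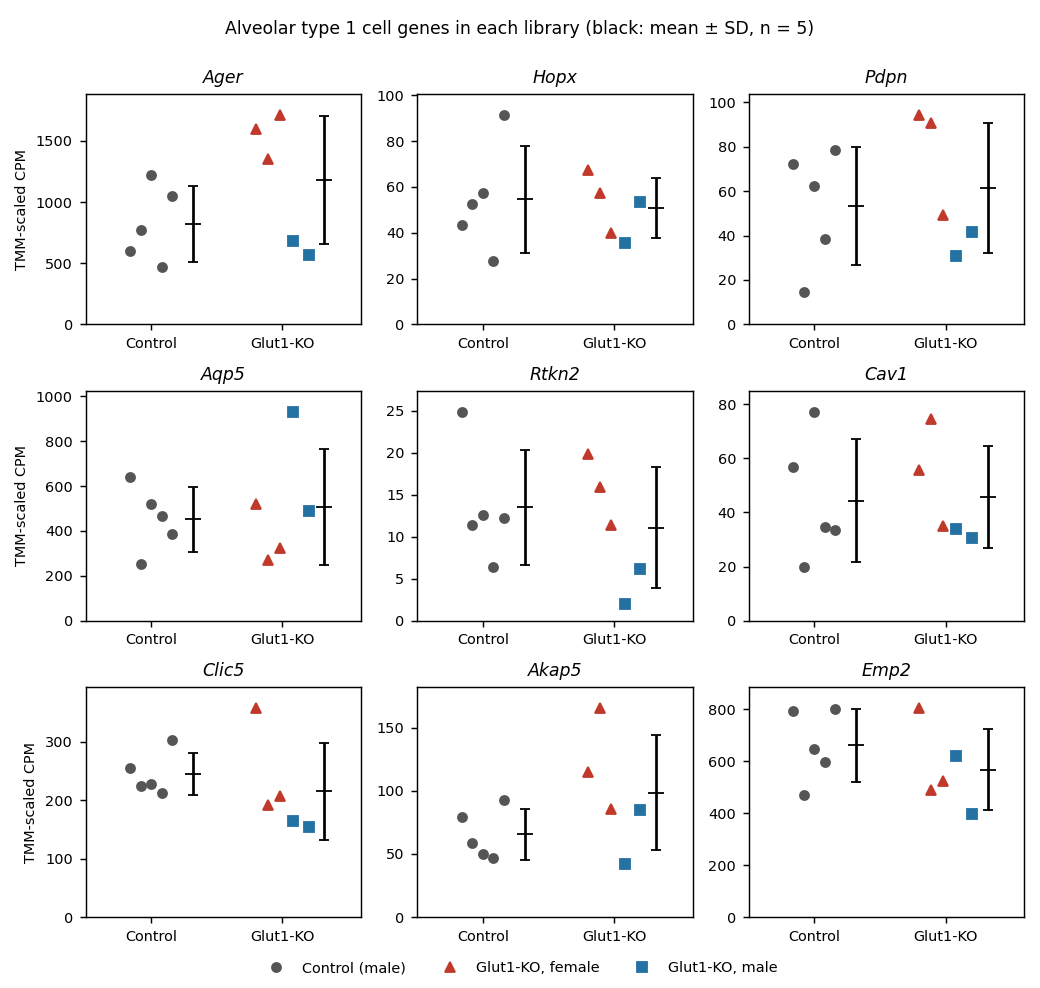
TMM-scaled CPM (vertical axes, from 0) of each AT1 cell gene in each library, with circles for male controls, triangles for female and squares for male libraries labelled Glut1-KO, and black bars for the mean ± SD of each group of 5. For Ager all 3 triangles, from 1353 to 1710 CPM, stand above the highest control at 1223 CPM and both squares stand among the controls, whereas for Aqp5 the highest point is a square at 932 CPM.

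In all, 0 of the 9 genes passed the test between the genotype groups with limma, among 15922 genes tested of which 0 (0.0%) passed. At an unadjusted p under 0.05 the count was 0 of 9, beside 7.68% of all genes. edgeR called 0 of the 9 (0.0% of all genes) and DESeq2 called 0 of the 9 (1.35% of all genes). The groups overlapped for all 9 genes, beside 1.85% of all genes whose groups did not overlap. Exact permutation p-values ran from 0.246 for Akap5 to 0.881 for Hopx, where 0.00794 is the smallest that 252 assignments can give, so 0 of the 9 had an exact p under 0.05, beside 7.96% of all genes. Fold changes were above 0 in 5 genes and below 0 in 4, beside 49.3% of all genes above 0, with a median of 0.09 beside -0.005 over all genes. That median ran from -0.12 to 0.24 when 1 library was left out, and was below 0 without control replicate 2 (-0.12) and without Glut1-KO replicate 2 (-0.06). It moved farther with subsets by sex, to -0.32 with the male libraries only and 0.33 with only the female libraries labelled Glut1-KO. For Hopx, Aqp5, Cav1, Clic5 and Emp2 (5 of 9) the 95% interval lay between -1 and 1 on the log2 scale, whereas for Ager, Pdpn, Rtkn2 and Akap5 it reached beyond. These intervals treat the libraries as independent, so they too would be too narrow should the name numbers stand for mice. With libraries of a shared number summed, which left 6 units, the interval of the same 5 genes still lay between -1 and 1, but closer to those limits for Aqp5 (-0.95 to 0.79), Cav1 (-0.79 to 0.96) and Clic5 (-0.82 to 0.64).

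Spread between libraries was wide for this set. The highest library exceeded the lowest 12.5-fold for Rtkn2, 6.48-fold for Pdpn, 3.95-fold for Akap5, 3.92-fold for Cav1, 3.71-fold for Aqp5, 3.64-fold for Ager and 3.3-fold for Hopx. Clic5 with 2.32-fold and Emp2 with 2.02-fold were the steadiest. Over all genes tested that have no count of 0 the median ratio was 2.18, and 8 of the 9 genes were above it. Spread within a shared name number could be as large as between numbers, since control replicates 1, 2 and 5 gave 72.4, 14.5 and 78.6 CPM for Pdpn.

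Within the group labelled Glut1-KO, the female and male libraries were compared in a fit with 3 groups of libraries. Ager was higher in the female libraries, at a mean of 1552 CPM beside 622 CPM in the male ones, a log2 difference of 1.32 (SE 0.36), without passing in limma (adjusted p 0.137). Rtkn2 averaged 15.7 and 4.1 CPM, a log2 difference of 2.06 (SE 0.66, limma, adjusted p 0.163). For Pdpn the log2 difference was 1.06 (SE 0.66), for Akap5 0.96 (SE 0.40), for Cav1 0.71 (SE 0.53) and for Clic5 0.61 (SE 0.25). In these 6 genes every female library exceeded both male ones, which is 66.7% of the set beside 20.6% of all genes. The lowest female and highest male libraries were close for Akap5 (85.2 and 84.9 CPM) and Cav1 (34.8 and 33.7 CPM). In 0 of the 9 was every female library below both male ones, beside 20.3% of all genes. Markers of other cells were read in the same way, without a call in limma. Every female library exceeded both male ones for 6 of 8 ciliated, 5 of 12 endothelial, 5 of 12 AT2, 5 of 10 proliferation, 2 of 11 leukocyte, 2 of 10 fibroblast, 1 of 7 club, 0 of 5 lymphatic, 0 of 3 mesothelial and 0 of 10 transitional-state genes. Every female library was below both male ones for 8 transitional-state, 3 fibroblast and 1 each of the mesothelial, club, AT2 and proliferation genes. Of 12 genes of dissociation stress, a response of cells to handling, 8 were higher and 1 was lower in every female library, and their sum ran from 5703 to 6506 CPM in the female and from 3907 to 4390 CPM in the male libraries. The summed endothelial markers ran from 332 to 684 CPM in the female and from 247 to 384 CPM in the male libraries, and Pdpn and Cav1 were the genes whose levels followed this sum most closely over the 10 libraries (r = 0.77 and 0.89). The part of these cells and of the stress genes in the differences was not tested. Leaving out 1 library moved several of these values by more than 1.5 times, namely Rtkn2 to 1.30 without Glut1-KO replicate 4, Akap5 to 0.47 without replicate 4 and to 1.47 without replicate 5, Cav1 to 0.46 without replicate 2 and Clic5 to 0.32 without replicate 1, and Rtkn2 stood at 2.91 without replicate 5. Hopx (0.28, SE 0.44) and Emp2 (0.25, SE 0.30) had smaller differences with overlapping libraries, and Hopx turned to -0.01 without Glut1-KO replicate 4 and Emp2 to -0.09 without replicate 5. Aqp5 had the opposite sign, with means of 371.5 CPM in female and 709.5 CPM in male libraries and a log2 difference of -0.92 (SE 0.42, limma, adjusted p 0.274), which was -0.45 without replicate 4 and -1.40 without replicate 5.

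The calls in this comparison depended on the tool. limma called 0 of the 9 genes beside 8 of all genes (0.0502%), and 4 of 9 had an unadjusted p under 0.05 beside 18.6% of all genes. edgeR called 0 of the 9 and 12 of all genes (0.0754%). DESeq2 called Ager (adjusted p 0.0126) and Rtkn2 (adjusted p 0.018), 2 of 9, with 7.51% of all genes called. Sex, the lower Slc2a1 of the female libraries (45.8 CPM beside 97.6 CPM on average) and the mice behind the libraries cannot be told apart here, as both male libraries share 1 name number and no control was female. Differences from the controls depended on which libraries were used. With the male libraries only, Ager stood at -0.32, Pdpn at -0.32, Cav1 at -0.30 and Akap5 at -0.06 on the log2 scale against the controls, opposite in sign to the values over all libraries. Rtkn2 stood at -1.74, Clic5 at -0.61 and Aqp5 at 0.65 there, each farther from 0 than over all libraries, and Hopx at -0.21 and Emp2 at -0.38. With only the female libraries labelled Glut1-KO, Rtkn2 stood at 0.33, Aqp5 at -0.27 and Hopx at 0.08, again opposite in sign, and Clic5 at 0.00. In that subset Ager stood at 1.00, Akap5 at 0.90, Pdpn at 0.74, Cav1 at 0.42 and Emp2 at -0.13. With either subset 0 of the 9 passed in limma.

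**Figure D3:**
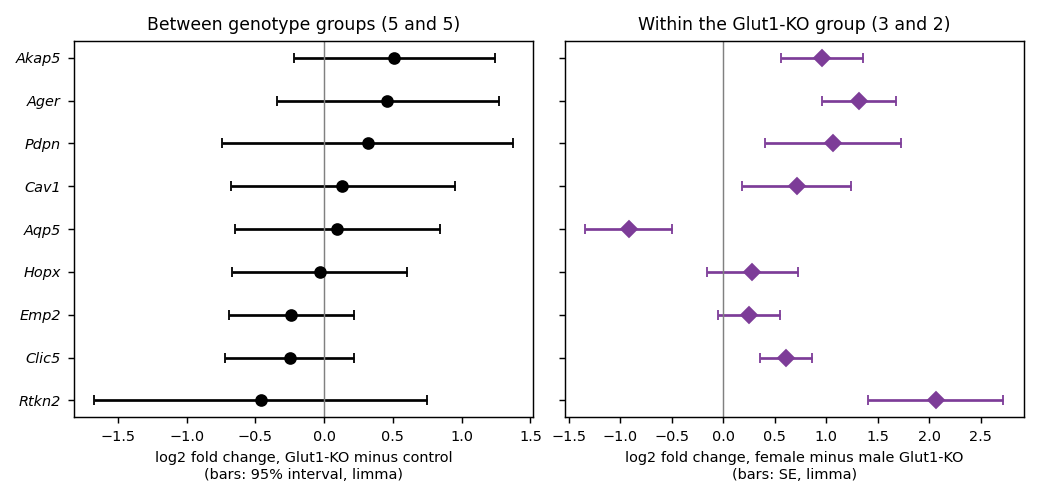
Left, log2 fold change of each AT1 cell gene between the libraries labelled Glut1-KO and the controls with its 95% interval. Right, log2 difference between the 3 female and 2 male libraries labelled Glut1-KO with its SE. All intervals on the left cross 0, and on the right Aqp5 at -0.92 is the only gene below 0.

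Across the 10 libraries the genes varied together only in part. Of the 36 pairs, 30 had a correlation of log2 CPM above 0, with a median Pearson r of 0.42 (n = 10 libraries, which share depth scaling, 2 genotype groups and name numbers, so no p is given). The closest pairs were Pdpn and Cav1 (r = 0.80), Clic5 and Emp2 (r = 0.79), Rtkn2 and Clic5 (r = 0.67), Pdpn and Akap5 (r = 0.65) and Rtkn2 and Akap5 (r = 0.62). Aqp5 stood apart, with r below 0 in 5 of its pairs, among them -0.48 with Akap5 and -0.38 with Ager. By rank (Spearman) its pairs with Rtkn2 (r = -0.45) and Clic5 (r = -0.09) were at 0.03 and 0.08. The mean of the standardized values of the 9 genes was highest in Glut1-KO replicate 1 (1.08) and lowest in control replicate 2 (-0.81), followed by control replicate 4 (-0.69) and the male Glut1-KO replicates 4 (-0.68) and 5 (-0.60). Low libraries thus occurred in both groups.

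**Figure D4:**
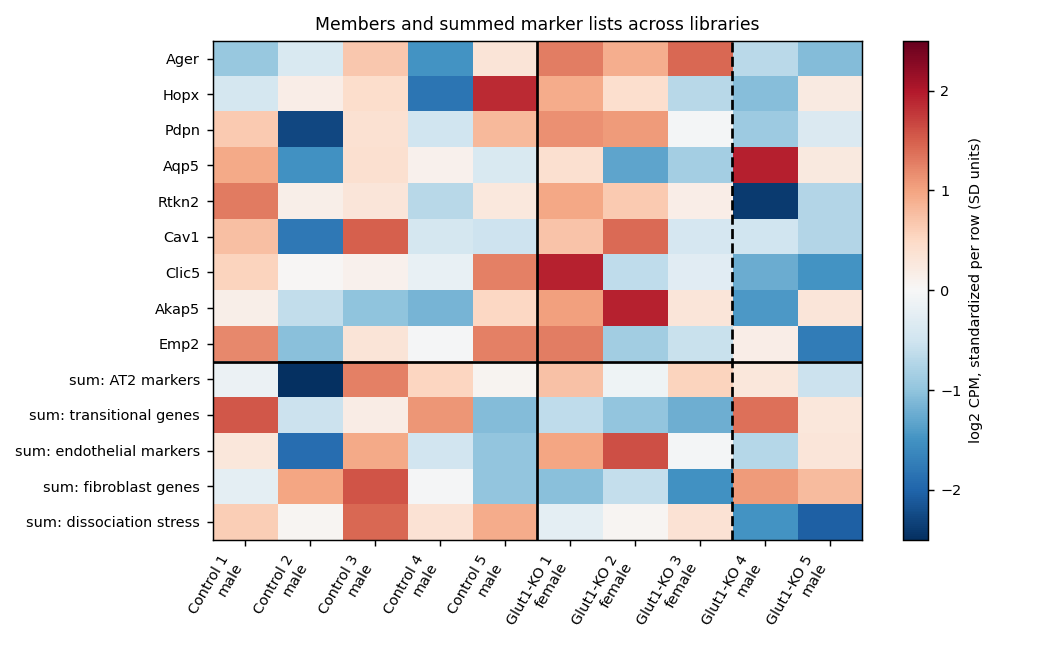
Log2 CPM of each AT1 cell gene, standardized over the 10 libraries (colour, SD units), above the summed CPM of 5 marker lists treated in the same way. A solid vertical line divides the genotype groups and a dashed one the female from the male libraries labelled Glut1-KO. Control replicate 2 is low for Pdpn, Cav1 and Aqp5 as well as for the AT2 and endothelial sums, and Glut1-KO replicate 4 is low for Rtkn2 and high for Aqp5.

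Genes outside the set with the most similar pattern were sought over the 15922 genes tested, as a description. Closest to the mean of the 9 genes were Scnn1b, a subunit of the epithelial sodium channel (r = 0.946, 11.5 to 62.6 CPM), Hs2st1, a heparan sulfate sulfotransferase (r = 0.939), Gpx8 (r = 0.937), Gfra1 (r = 0.934) and Cdc42ep4 (r = 0.934). For single genes the closest were 9230110C19Rik for Ager (r = 0.973), Pltp for Hopx (r = 0.937), Fam124a for Pdpn (r = 0.964), Akr1a1 for Aqp5 (r = 0.977) and Trim37 for Rtkn2 (r = 0.921). Hoxa5 was closest to Cav1 (r = 0.971), Gm17354 to Clic5 (r = 0.928), Col4a4 to Akap5 (r = 0.937) and B9d1 to Emp2 (r = 0.892). All rest on 10 libraries, and the highest r among 15922 genes is high by selection.

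Other genes known from AT1 cells were examined in a list of 24, which shares none of the 9. With limma 0 of 24 passed, 13 were above 0 and 11 below, and the median log2 fold change was 0.07. The genes with the smallest p among those above 0 were Gramd2, an AT1 membrane contact protein (40 ± 9.86 CPM in controls beside 55.8 ± 11.7 CPM under the Glut1-KO label, log2 fold change 0.50, limma, adjusted p 0.608), and Col4a4, a chain of the alveolar basement membrane collagen (0.62, limma, adjusted p 0.744, and 0.39 without Glut1-KO replicate 2). Among those below 0 were Cyp2b10, a cytochrome P450 (41 ± 14.9 and 10.5 ± 9.59 CPM, log2 fold change -2.53, SE 0.60, limma, adjusted p 0.351), and Sema3e, a guidance ligand (37.4 ± 10 and 19.2 ± 8.1 CPM, log2 fold change -1.05, SE 0.30, limma, adjusted p 0.436). Between female and male libraries labelled Glut1-KO this list was split, with 11 higher and 13 lower in females, whereas 8 of the 9 chosen genes were higher, beside 51.0% of all genes. Lists of other cell types differed in direction. Higher values in the female libraries were found for 11 of 12 AT2, 12 of 12 endothelial, 8 of 8 ciliated, 11 of 11 leukocyte, 9 of 10 proliferation, 9 of 12 stress, 5 of 7 club and 4 of 5 lymphatic genes, but for 5 of 10 fibroblast, 0 of 3 mesothelial and 0 of 10 transitional-state genes. In the list of 24, every female library was above both male ones for 5 genes and below both for 8, beside the 6 and 0 of the 9 chosen genes. The summed level of the 24 correlated over the 10 libraries with Aqp5 (r = 0.83) and Emp2 (0.27). Its r was below 0 with Rtkn2 (-0.62), Ager (-0.55), Akap5 (-0.37), Cav1 (-0.21), Hopx (-0.20), Clic5 (-0.15) and Pdpn (-0.11). Highly expressed genes weighed on this sum, as Krt7 gave 2560 of the 6732 CPM in Glut1-KO replicate 4.

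Regulators of the AT1 state showed small differences. Of 8 such genes 0 passed with limma and 6 were above 0, with a median of 0.08. Nkx2-1 averaged 188 ± 40.6 CPM in controls beside 235 ± 32.1 CPM under the Glut1-KO label (log2 fold change 0.35, SE 0.16, limma, adjusted p 0.667) and Gata6, a zinc finger factor of lung endoderm, at 0.24 (limma, adjusted p 0.695). Lats1, a kinase of the Hippo pathway, stood at -0.19 (limma, adjusted p 0.751) and Tead1, a DNA-binding partner of YAP, at -0.13 (limma, adjusted p 0.805). Leaving out 1 library moved Nkx2-1 to 0.22 (control replicate 1), Lats1 to -0.10 (control replicate 2) and Tead1 to -0.06 (Glut1-KO replicate 3). Transitional-state genes were below 0 in 8 of 10, with a median of -0.30 and 0 passing in limma. Leaving out 1 library moved this median between -0.12 (control replicate 1) and -0.59 (Glut1-KO replicate 4), and that of the regulators between 0.04 and 0.15. Sfn, which encodes 14-3-3 sigma, measured 90.1 ± 43.2 and 39.3 ± 19.1 CPM (log2 fold change -1.22, SE 0.36, limma, adjusted p 0.449) and Itgb4, an integrin of the basal surface, 148 ± 64.9 and 75.5 ± 15.6 CPM (log2 fold change -0.91, SE 0.25, limma, adjusted p 0.419), while Krt8 (0.05) and Lgals3 (0.04) were near 0. In the female libraries labelled Glut1-KO all 10 were lower than in the male ones, with a median of -1.17. The summed level of these genes, 65.4% to 87.5% of which was Clu, correlated with Ager at r = -0.78 and with Aqp5 at r = 0.77 over the 10 libraries.

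Markers of other cells that could share the measured genes were read in the same libraries. AT2 markers summed to 29862 to 92101 CPM in controls and to 54984 to 79148 CPM in the libraries labelled Glut1-KO, and 9 of 12 were above 0, among them Abca3 (0.39) and Sftpb (0.36), with Lyz2 (-0.70) and Sftpa1 (-0.31) below. Single libraries weighed on these values, as Lyz2 was -1.26, -0.40 and -0.44 without control replicates 2, 3 and 4. Sftpa1 was -0.64, -0.17 and -0.20 without the same libraries and -0.05 without Glut1-KO replicate 5, and Sftpb was 0.23 without Glut1-KO replicate 4. Abca3 turned to -0.08 with the male libraries only. All 12 endothelial markers had log2 fold changes above 0, with a median of 0.64 and 0 passing in limma, and Cldn5, a tight junction protein of endothelium, stood at 0.71 (limma, adjusted p 0.643) and Egfl7 at 0.47 (limma, adjusted p 0.713). The median was 0.35 without control replicate 2 and 0.41 without Glut1-KO replicate 2, and at most 0.86 without any other library. Their sum ran from 146.5 to 508 CPM in controls and from 247 to 684 CPM in the libraries labelled Glut1-KO, and 0 of the 12 were at 0 in all libraries. Over the 10 libraries this sum correlated with Cav1 at r = 0.89 and with Pdpn at r = 0.77. For the other genes r was 0.55 (Akap5), 0.43 (Ager), 0.39 (Rtkn2), 0.15 (Hopx), 0.09 (Aqp5), 0.07 (Emp2) and 0.04 (Clic5). Control replicate 2, lowest in Cav1 and Pdpn, had the lowest endothelial sum and also the lowest AT2, ciliated, club and leukocyte sums. With the AT2 sum r was 0.68 for Pdpn and 0.66 for Cav1. For the other genes it was 0.48 (Aqp5), 0.47 (Emp2), 0.32 (Ager), 0.17 (Clic5), -0.01 (Rtkn2), -0.01 (Akap5) and -0.08 (Hopx). The part of endothelial or AT2 RNA in the levels of Cav1 and Pdpn was not tested.

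**Figure D5:**
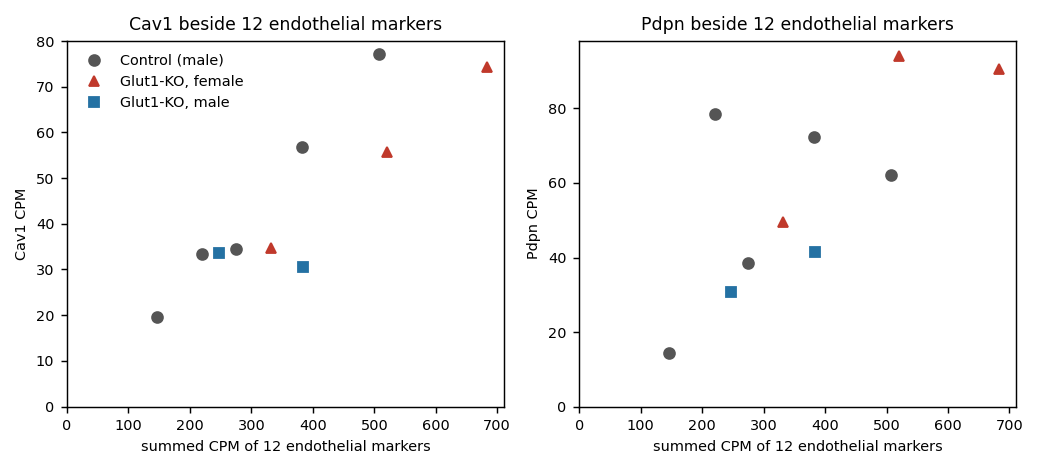
CPM of Cav1 (left) and Pdpn (right) on the vertical axes beside the summed CPM of 12 endothelial markers on the horizontal axes, with 1 point per library and symbols for group and sex. Points rise from control replicate 2 at 146.5 CPM of endothelial markers, with 19.7 CPM of Cav1 and 14.5 CPM of Pdpn.

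Further lists gave the values below, with 0 genes passing in limma in each. Of the lymphatic markers 4 of 5 tested were above 0 (median 0.39), with Mmrn1 at 1.72 (SE 0.60) and Lyve1 at 0.39. Prox1, a lymphatic factor, went the other way at -1.28 (SE 1.01), with means of 5.02 CPM in controls and 1.89 CPM under the Glut1-KO label. Mmrn1 was near the floor, at means of 0.326 and 0.987 CPM and a lowest count of 3, and Ccl21a had 0 counts in all libraries. Lymphatic markers summed to at most 56.7 CPM. Their median was 0.13 without control replicate 2, where Lyve1 was 0.25, and 0.64 without control replicate 3. Fibroblast genes were below 0 in 8 of 10 (median -0.22, Fn1 at -0.39) and 2 of 3 mesothelial genes tested were below 0 (median -0.60, Msln at -0.81). Without Glut1-KO replicate 3 both medians turned, to 0.11 and 0.03. In the mesothelial list Wt1, Lrrn4 and Rspo1 fell below the count filter. Upk1b, at the median of -0.60, averaged 0.945 CPM in controls and 0.692 CPM under the Glut1-KO label. Upk3b (0.24) averaged 0.723 and 1.03 CPM, whereas Msln averaged 228 and 120 CPM. The mesothelial median thus rests on few counts. Fn1 ranged from -0.66 without Glut1-KO replicate 4 to -0.15 without control replicate 3 and was -0.60, -0.23 and -0.20 without control replicate 5 and Glut1-KO replicates 1 and 3, while Msln was -1.27 without control replicate 5. All 8 ciliated cell genes were below 0 (median -0.71, Foxj1 at -2.23 and Tppp3 at -0.70). Their sum was 265.6 CPM in control replicate 5 and at most 99.9 CPM in any other library, and the median was -0.18 without that library and -1.52 without control replicate 2. Below 0 were also 5 of 7 club cell genes (median -0.67, Scgb3a2 at -1.33 and Scgb1a1 at -1.04), with a median of -0.32 without control replicate 3 and -1.34 without Glut1-KO replicate 1. Scgb3a2 was -0.80 without control replicate 5 and Scgb1a1 -0.66 without Glut1-KO replicate 5. All 11 leukocyte genes tested were above 0 in spite of the CD45 depletion (median 0.95), with Ptprc, which encodes CD45, at 1.47 (SE 0.25, limma, adjusted p 0.230) and Lcp1 at 0.31. Of these 11, 7 had an unadjusted p under 0.05 in limma, beside 7.68% of all genes. For 6 of them the groups did not overlap, beside 1.85% of all genes. Proliferation genes had a median of -0.12 (Cdk1 at -0.31 and Pcna at -0.11), and without control replicate 2 Cdk1 was -0.04, Pcna 0.02 and the median 0.02. All 12 genes of dissociation stress were below 0 (median -0.39), with Atf3 at -0.94 (SE 0.17, limma, adjusted p 0.230) and Fos at -0.28, which was -0.10 without Glut1-KO replicate 5. Of these 12, 6 had an unadjusted p under 0.05 in limma, and for 3 the groups did not overlap. Both male libraries under the Glut1-KO label had the lowest summed stress genes of the 10, and this sum correlated with Rtkn2 at r = 0.61 and with Clic5 at r = 0.59. Emp2 correlated with the summed ciliated genes and with the summed club genes at r = 0.81 each. Clic5 (r = 0.65) and Pdpn (0.64) also followed the ciliated sum, and Aqp5 (0.61) the club sum. Correlations with the club sum were below 0 for Ager (-0.22), Hopx (-0.12) and Akap5 (-0.11). With the male libraries only the medians were 0.09 for endothelial, -0.20 for AT2, 0.23 for transitional-state, 0.08 for lymphatic, 0.20 for mesothelial, -1.92 for ciliated, -1.46 for club and 0.68 for leukocyte genes. With only the female libraries under the Glut1-KO label they were 0.92, 0.34, -0.86, 0.52, -0.89, -0.17, -0.09 and 1.09 in the same order. For stress genes these subsets gave -0.72 (male) and -0.23 (female), for proliferation genes -0.48 and 0.05 and for fibroblast genes -0.02 and -0.33. Regulators of the AT1 state stood at -0.06 and 0.23 and the list of 24 other AT1 genes at -0.03 and -0.07. Whether these lists had a part in the levels of the AT1 cell genes was not tested.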

How the data were processed

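The AT1 cell genes and all gene lists were chosen with earlier results of these data known. Raw read counts per gene were deposited by the authors, who, per the labels, used bcl2fastq 2.17, cutadapt 1.4.2, HISAT2 on mm10 and featureCounts 1.4.4. The strand setting and annotation release were not given in the sources used here. The 10 columns of the combined table equalled the single files. A deposited table of the authors' log2 values was not used. Of the 39017 gene identifiers 96.6% were found in GENCODE M21, which gave exon lengths for TPM. Counts were filtered with filterByExpr (edgeR 4.0.16, minimum count 10, minimum total 15), scaled by TMM, and fitted with voom and limma 3.58.1 (R 4.3.3, prior count 0.5), with group as the only term or 3 groups for the female and male contrast. P-values were 2-sided and Benjamini-Hochberg adjusted over 15922 genes, with a threshold of 0.05. An exact permutation test over 252 assignments was run for each gene. The fits were tested on simulated data. Alternatives were DESeq2 1.42.0, edgeR, library totals, other filters, sex, subsets of libraries, a replicate block and leaving out each library. From each of the lists of other AT1, regulator, AT2, transitional and endothelial genes, the 2 genes of smallest p above 0 and below 0 were named. From the other lists the gene with the smallest p and the gene with the highest level per length were named. A few further genes, such as Prox1, were named to show limits of the list values.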

Additional observations from a re-analysis of the deposited data

Results flagged for a closer look

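In 7 of 112 groups of 5 values, 1 library stood far from the others by Dixon's ratio (above 0.71), where chance alone gives about 1 in 20. Among the AT1 cell genes this was Clic5 in Glut1-KO replicate 1, at 358 CPM beside 154 to 207 CPM in the other 4 libraries. In control replicate 2 the library total was 49.8 M counts beside 40.1 to 41.4 M in the other controls, and the summed proliferation genes reached 779.7 CPM beside 411 to 450.4 CPM. In control replicate 3 the summed lymphatic markers reached 56.7 CPM beside 14 to 25.8 CPM, and Egfl7 24.7 CPM beside 12.1 to 14.9 CPM. Lcp1 was at 426 CPM in control replicate 4 beside 277 to 319 CPM, and Scgb3a2 at 18.9 CPM in Glut1-KO replicate 1 beside 6.2 to 7.5 CPM.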

How the results depend on the processing

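Between the genotype groups 0 of the 9 AT1 cell genes passed under limma or any alternative model, and all 9 kept their direction with DESeq2, edgeR, library totals and no filter on counts. A mean TPM of at least 20 left 8 of the 9 in the test, since Rtkn2 dropped out. Counts of called genes moved from 0 to 215 with DESeq2 (110 higher and 105 lower), 3 with sex as a covariate (1 higher and 2 lower), 1 with male libraries only (1 higher), 9 with only the female libraries labelled Glut1-KO (4 higher and 5 lower) and 2 with libraries of a shared name number summed (2 lower). Leaving out 1 library gave 0 to 1, the 1 (lower) without control replicate 3. Of the marker lists, which held from 3 to 12 tested genes each, DESeq2 called 11 genes, beside 1.35% of all genes. The sex covariate called 1 of the marker genes. Between female and male libraries labelled Glut1-KO, DESeq2 called 2 of the 9 genes and 1196 genes in all beside 8 with limma, and library totals moved the median of all genes to 0.109 from 0.013. The exact test called 0 to 1 of the 9 when 1 library was left out, the 1 being Clic5 without Glut1-KO replicate 1 (7.83% of all genes). The causes were not tested.

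Since every control was male, the group term with sex as a covariate compares the controls with the 2 male libraries labelled Glut1-KO. The fit with male libraries only makes the same comparison, so like values were built into the design and are no separate check. Both rest on these 2 libraries, which share 1 name number and have Slc2a1 inside the control range. To 2 decimals both gave a log2 fold change of 0.06 for Slc2a1, -0.32 for Ager, -0.32 for Pdpn, -0.30 for Cav1 and -0.06 for Akap5. For Col4a4 it was -0.20, for Abca3 -0.08 and for Fn1 0.46. All were opposite in sign to the values reported. With only the female libraries labelled Glut1-KO it was 0.08 for Hopx, -0.27 for Aqp5, 0.33 for Rtkn2, 0.00 for Clic5, -0.47 for Krt8, -0.60 for Lgals3 and 0.03 for Fos. With libraries of a shared name number summed it was 0.02 for Hopx, -0.08 for Aqp5, -0.17 for Krt8 and -0.16 for Lgals3. When 1 library was left out, signs turned for Hopx (-0.25 to 0.18), Pdpn (-0.12 to 0.52), Aqp5 (-0.17 to 0.29), Cav1 (-0.14 to 0.38), Krt8 (-0.25 to 0.23), Lgals3 (-0.31 to 0.39) and Pcna (-0.25 to 0.02), and between female and male libraries for Hopx (-0.01 to 0.58) and Emp2 (-0.09 to 0.57). Slc2a1 ranged from -0.81 to -0.42. The median of the 9 genes ranged from -0.12 to 0.24, and medians also turned sign for other AT1 genes (-0.03 to 0.17), AT2 (-0.08 to 0.26), fibroblast (-0.44 to 0.11), mesothelial (-0.79 to 0.03) and proliferation genes (-0.24 to 0.02). Foxj1 ranged from -3.08 to -1.71 and Tppp3 from -1.22 to -0.10.

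Groups share replicate numbers in the labels, but the numbers did not pair the libraries, since deviations of libraries with the same number correlated at -0.132 to 0.197 and only the libraries numbered 4 matched best by number. With a replicate block 0 genes and 0 of the 9 AT1 cell genes were called, and adjusted p-values of the 9 ran from 0.689 to 0.961 (limma). Rtkn2 had the fewest counts of the 9 genes, at 65 to 984 per library.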
